A study of Mus musculus with 14 samples.

Results

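Lipid droplet coat and lipolysis genes comprised 10 genes among the 17552 of the deposited expression table, and were chosen by their symbols: the perilipins Plin2, Plin4 and Plin5, the CIDE genes Cidea, Cideb and Cidec, the lipase gene Pnpla2 with its inhibitor G0s2, and the FITM genes Fitm1 and Fitm2. The measurements came from livers of male Apoe-deficient mice of C57BL/6 background (C57BL/6J in the study's methods), and both groups carried the same genotype label. The labels gave an age of 8 weeks. Mice of about this age were fed the diets for weeks by the study's methods, so that the livers came from older mice. The control group received a Western diet and the erythrodiol group the same diet enriched in erythrodiol, a triterpene of the olive, at a dose of 10 mg/kg, for 8 weeks by the labels and for longer by the study's methods. Each group consisted of 7 libraries of polyA RNA, each a pool of the liver RNA of a few mice, so that single animals cannot be told apart. Liver RNA was not sorted by cell type, so that fewer cells of a type and less RNA per cell cannot be told apart either.

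Hepatocytes store triglyceride and cholesteryl ester in lipid droplets, which have a core of neutral lipid and a coat of proteins. Perilipins cover the droplet and control the access of lipases, CIDE proteins at droplet contacts move lipid from small droplets to larger ones, and FITM proteins of the endoplasmic reticulum take part in the budding of new droplets. Adipose triglyceride lipase, encoded by Pnpla2, removes the first fatty acid of a stored triglyceride, and the small protein of G0s2 binds and inhibits it.

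The deposited values were 1 expected count per gene and group, the sum over its 7 libraries, so that the genes have no replicates and no test between diets could be made. Ratios of erythrodiol to control were scaled by the total counts of the groups, which were 122889032 in control and 124686047 in erythrodiol, and the 95% exact (Clopper-Pearson) intervals that follow cover counting error only, not differences among mice. The libraries entered these sums unequally, since a single control library contributed between 9.12% and 17.3% of the read pairs mapped to genes and a single erythrodiol library between 13.9% and 14.6%. Control libraries held between 34856340 and 55244294 clean reads and erythrodiol libraries between 47669656 and 48058606, while those mapped uniquely made up 51.4% to 67.1% and 57.85% to 65.32%, respectively. Apoe had 9403 counts in control and 8293 with erythrodiol. Whether these reads lie inside or outside the deleted part of the gene is not known from a sum per gene, so that they do not check the genotype label. The study checked by RT-PCR that livers of Apoe-deficient mice lacked Apoe RNA.

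Most of these genes had less RNA with erythrodiol, and the lipase gene Pnpla2 and Fitm2 had more. The counting interval of the ratio lay below 1 for 6 genes (Plin2, Plin5, Cidea, Cidec, G0s2 and Fitm1). It lay above 1 for 3 (Cideb, Pnpla2 and Fitm2) and on both sides of 1 for Plin4. For how many of all genes the interval leaves out 1 was not counted. At high counts it does so for small changes too, as for Cideb at a ratio of 1.04. Of the 10 genes, 9 had at least 100 counts in the groups together, and their median log2 ratio was -0.32, with values from -0.56 to 0.34. Over the 13291 genes with at least 100 counts the median was 0.16, and its quartiles lay at -0.04 and 0.32. The log2 ratio was below 0 for 5 of the 9, against 28.8% of all genes. None of the 9 was past 1.5-fold, against 2.55% of all genes higher and 3.14% lower. At 1.2-fold, a limit set after the values were seen, 5 of the 9 were lower and 2 higher, against 11.4% and 33.7% of all genes.

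**Figure D1:**
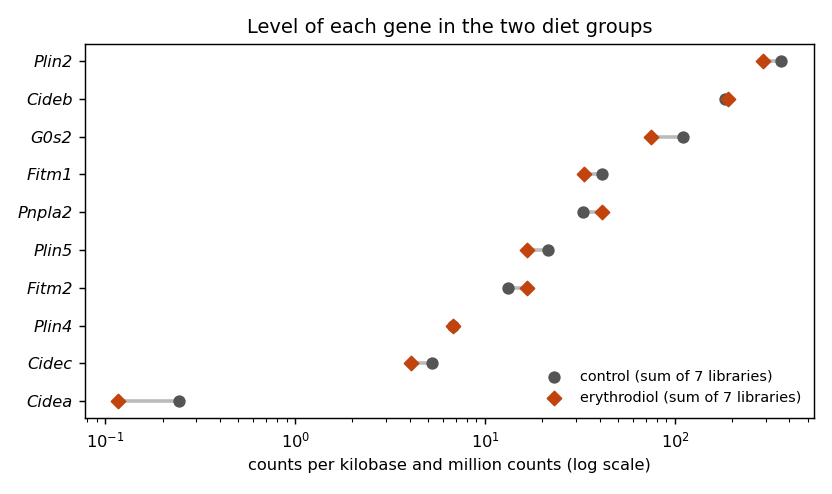
Level of each gene, in counts per kilobase of gene length and 1000000 counts on a log scale, in the control group (grey circles) and the erythrodiol group (orange diamonds), each 1 sum over 7 libraries with no error bar. Levels ran from 0.24 (Cidea) to 363 (Plin2) in control, and the markers of Plin4 lie on each other.

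The log2 ratio depended on gene length over the whole table. In 20 classes of length it went from a median of -0.30 in the class around 724 bases to 0.35 in the class around 8912 bases. Every gene was therefore also set against the 500 genes nearest to it in length, all with at least 100 counts. On that scale the median log2 ratio of the 9 genes was -0.29, and 6 of them were below 0, against 50.0% of all genes. At 1.2-fold 5 were lower and 1 was higher, against 17.6% and 9.49% of all genes, and at 1.5-fold none was, against 3.48% lower and 1.02% higher. G0s2 and Fitm1, the shortest at 847 and 912 bases, came closer to their neighbours in length, whereas Plin4, the longest at 5935 bases, moved below them.

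**Figure D2:**
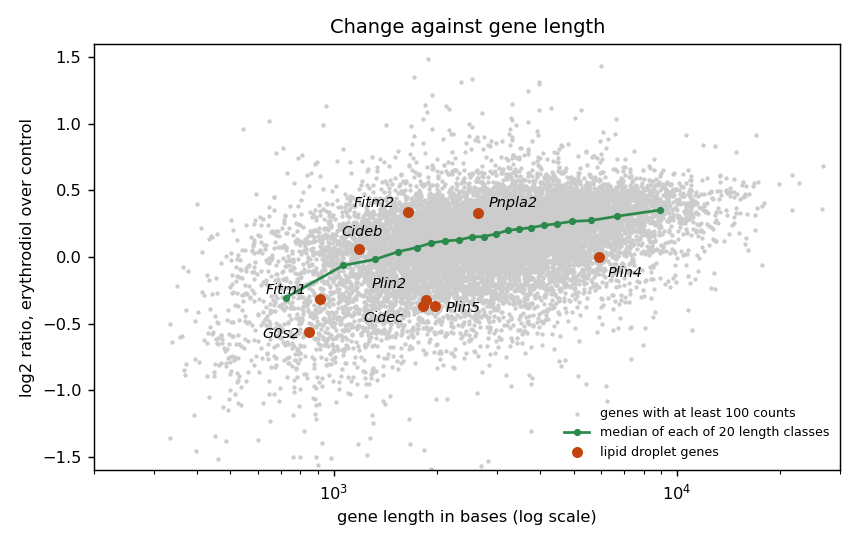
Log2 ratio of erythrodiol to control (vertical axis) against gene length in bases (horizontal axis, log scale) for the 13291 genes with at least 100 counts (grey), the median of each of 20 length classes (green line) and the 9 lipid droplet genes with at least 100 counts (orange); 18 genes lie outside the axes. Plin2, Plin5 and Cidec lie well below the green line at their length, and Fitm2 and Pnpla2 above it.

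Plin2 (gene ID 11520), the perilipin found on droplets of most cells and the main one of the steatotic liver, was by far the most abundant member per length. It lies on chromosome 4 of GRCm38 from 86626910 to 86670217, on the minus strand. It had 82728 counts in control and 67069 with erythrodiol, a ratio of 0.799 (counting interval 0.791 to 0.807). Its level went from 363 to 290 counts per kilobase of gene length and 1000000 counts, and its rank by level from 189 to 224 among the genes of the table. Relative to the 500 genes of 1788 to 1925 bases nearest to it in length, the log2 ratio was -0.42, and 47 of these genes had a lower ratio. Counting error is small at this depth, and the spread of Plin2 among the 7 pools of a group is not known from these sums.

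Macrophage markers were lower as well. Of 5, 3 were lower past 1.5-fold, against 3.14% of all genes. Their ratios were 0.639 for Clec4f, 0.594 for Adgre1 and 0.615 for Cd5l, while Timd4 stood at 0.717 and Cd68 at 1.03. The summed level of the 5 markers went from 386 to 254, of which Cd5l alone held 261 and 160. Macrophages also hold droplets coated by the protein of Plin2, and the part of these cells in the lower count of Plin2 was not tested.

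A second row of the table carried the symbol Plin2, with 91.3 counts in control and 89.4 with erythrodiol, a ratio of 0.965 (counting interval 0.712 to 1.31). Its gene identifier belongs to Gm12551 in RefSeq, a transcribed pseudogene on chromosome 4 from 86626857 to 86632221 that overlaps the span of Plin2 by 5312 bases. Its control count was 0.11% of that of Plin2, and it was left out of the 10 genes.

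Plin5 (gene ID 66968), a perilipin of oxidative tissues that holds droplets close to mitochondria, was also lower with erythrodiol. On chromosome 17 from 56111597 to 56117606, minus strand, it had 5175 counts in control and 4065 with erythrodiol, a ratio of 0.774 (counting interval 0.743 to 0.807). Relative to genes of like length its log2 ratio was -0.48, the lowest of the 9 genes on that scale, and 29 of the 500 genes nearest in length had a lower one.

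Plin4 (gene ID 57435), a perilipin best known from adipocytes and muscle, differed by less than its counting error. It lies on the same strand of chromosome 17, from 56100587 to 56109948, with 1648 bases between it and Plin5, and 17 of its 5777 exon bases are shared with Hdgfl2 on the plus strand. It had 4959 counts in control and 5036 with erythrodiol, a ratio of 1.00 (counting interval 0.962 to 1.04), although 58 of the 500 genes nearest in length had a lower ratio, and relative to them its log2 ratio was -0.29. Plin4 was level with the total counts, and low for a gene of its length.

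Among all 5 perilipins, Plin2 made up 88.3% of the summed level per kilobase in control and 86.5% with erythrodiol. Plin3, a perilipin of nascent droplets that is not among the 10 genes, went from 4.84% to 6.52%, with 5276 and 5878 counts. Plin1, the perilipin of adipocytes, had 5 counts in control and 7 with erythrodiol. The summed level of the family went from 411 to 335.

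The stretches before the starts of Plin2 and Plin5 that lie outside annotated exons are shown because both genes were lower and both hold AGGTCA. Many nuclear receptors bind this hexamer, which was sought on both strands. Cidec, G0s2 and Fitm1 were lower too and did not hold it within 250 bases before their starts. A link between the hexamer and the lower counts was not tested. Sequences are from RefSeq (GRCm38.p6), written 5′ to 3′ on the strand of the gene. Capitals mark matches, on both strands and whole within the stretch, to AGGTCA, the CCAAT box CCAAT and the GC box GGGCGG. Plin2 is given at chr4:86670218-86670309, from 250 to 159 bases before its start in the RefSeq promoter table, and Plin5 at chr17:56117607-56117798, from 250 to 59 bases before the upstream one of its 2 starts there:
Plin2: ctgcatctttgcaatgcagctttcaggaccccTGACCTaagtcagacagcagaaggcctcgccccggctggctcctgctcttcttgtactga
Plin5: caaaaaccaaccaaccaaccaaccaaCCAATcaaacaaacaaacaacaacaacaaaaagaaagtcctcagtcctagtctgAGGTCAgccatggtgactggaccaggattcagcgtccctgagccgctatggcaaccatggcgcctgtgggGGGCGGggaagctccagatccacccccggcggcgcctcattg

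The hexamer began 218 bases before this start of Plin2 and 170 bases before that of Plin5. Both starts lie inside the RefSeq spans of these genes, which reach to 86670217 and 56117606, so the hexamers lie closer to the ends of the spans. Of the 11 windows of 250 bases that RefSeq starts gave for 9 of the 10 genes, these 2 held it, against 14.02% of 32851 windows of all genes. No window of Cidea was searched, because windows on chromosome 18 were left out for the members. The response element of PPAR receptors was searched as 2 copies of the hexamer on one strand separated by 1 base, and so overlaps the hexamer. It was found in none of the 11 and in 0.0335% of all windows. An exact match is so rare that its absence from 11 windows says nothing about PPAR elements of these genes. Neither the E-box CACGTG nor the cyclic AMP response element TGACGTCA was found in any of the 11 (6.02% and 1.55% of all windows). The TATA box TATAAA was found before Cideb alone, against 12.4% of all windows.

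Of the CIDE genes, Cidec and Cidea were lower with erythrodiol and Cideb hardly differed. Cidec (gene ID 14311), also called Fsp27, which drives the growth of large droplets, lies on chromosome 6 from 113424634 to 113435760 on the minus strand. It had 1169 counts in control and 919 with erythrodiol, a ratio of 0.775 (counting interval 0.710 to 0.845), and relative to genes of like length its log2 ratio was -0.45. Only 34 of the 500 genes nearest in length had a lower ratio.

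Cidea (gene ID 12683), a CIDE gene of brown fat that appears in fatty liver, lies on chromosome 18 from 67343564 to 67367794. It had 35 counts in control and 17 with erythrodiol, a ratio of 0.479 (counting interval 0.251 to 0.878). Relative to genes of like length its log2 ratio was -1.04. It was the only member past 1.5-fold and past 2-fold, and the only one under 100 counts. Among all 16473 genes above 0 in both groups, with no minimum of counts, 7.01% were lower past 1.5-fold and 3.16% past 2-fold. How these counts were spread over the 7 libraries of a group is not known.

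Cideb (gene ID 12684), the CIDE gene of hepatocytes, which takes part in the lipidation of very-low-density lipoproteins, had 26603 counts in control and 28184 with erythrodiol. Its ratio was 1.04 (counting interval 1.03 to 1.06), its log2 ratio was 0.06, and 305 of the 500 genes nearest in length had a lower ratio. Relative to the median of all genes its log2 ratio was -0.10, so that its direction depended on the scaling. Cideb lies on the minus strand of chromosome 14 from 55754052 to 55758424, and 1136 of its 1488 exon bases in GENCODE are also exon bases of Nop9 on the plus strand. Counting by strand is not given in the sources used here, so that reads of the shared part may not be told apart. Nop9 had 2801 counts in control and 3042 with erythrodiol.

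Per kilobase, Cideb held 97.1% of the CIDE level in control and 97.9% with erythrodiol, Cidec 2.79% and 2.08%, and Cidea 0.13% and 0.0601%. Within the same libraries, and hence free of the scaling between groups, the level of Cideb was 34.8 times that of Cidec in control and 47.0 times with erythrodiol. The ratio of Cidec to Cideb thus stood at 0.742 of its control value (counting interval 0.680 to 0.810).

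The lipase and its inhibitor differed in opposite directions. Pnpla2 (gene ID 66853), on the plus strand of chromosome 7 from 141455188 to 141460743, had 10567 counts in control and 13500 with erythrodiol, a ratio of 1.26 (counting interval 1.23 to 1.29). G0s2 (gene ID 14373), on the minus strand of chromosome 1 from 193272160 to 193273188, had 11492 counts in control and 7884 with erythrodiol, a ratio of 0.676 (counting interval 0.657 to 0.696). Its log2 ratio of -0.56 was the lowest of the 9 genes, and 3.52% of all genes with at least 100 counts had a lower one. Relative to the median of all genes it was -0.73, lower past 1.5-fold as were 6.16% of all genes.

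Gene length bears on both. Set against genes of like length, the log2 ratio of Pnpla2 was 0.18 in place of 0.33, and that of G0s2 was -0.37 in place of -0.56. Of the 500 genes nearest in length, 400 had a lower ratio than Pnpla2 and 107 a lower one than G0s2. Genes as short as G0s2, from 711 to 982 bases, had a median log2 ratio of -0.20.

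Per kilobase, G0s2 RNA stood at 3.38 times the level of Pnpla2 RNA in control and at 1.82 times with erythrodiol. The quotient of these was 0.537 (counting interval 0.517 to 0.558), and it does not depend on the scaling between groups, although it does depend on the length trend, since Pnpla2 is 2634 bases long. The levels themselves were 110.4 and 74.7 for G0s2, and 32.6 and 41.1 for Pnpla2.

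The stretches before the starts of G0s2 and Pnpla2 are shown because these members, which act on the same step, differed in opposite directions. For G0s2 the longest run outside annotated exons is given, chr1:193273218-193273337, from 149 to 30 bases before its start. Pnpla2 is given at chr7:141454938-141455187, from 250 to 1 bases before its start, in the same notation as above:
G0s2: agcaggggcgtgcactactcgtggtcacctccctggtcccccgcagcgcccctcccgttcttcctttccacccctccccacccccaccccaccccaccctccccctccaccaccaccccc
Pnpla2: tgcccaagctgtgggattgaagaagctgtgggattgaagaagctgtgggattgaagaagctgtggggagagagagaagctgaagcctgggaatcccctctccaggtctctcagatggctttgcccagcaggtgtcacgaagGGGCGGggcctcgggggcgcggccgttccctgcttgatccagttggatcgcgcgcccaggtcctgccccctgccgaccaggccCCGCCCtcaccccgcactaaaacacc

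Pnpla2 held the GC box GGGCGG at 109 and 26 bases before its start, and G0s2 held it once, 18 bases before its start and so past the end of the stretch shown. The windows of Fitm2, Cideb and Plin5 also held it, and it was found in 32.7% of the windows of all genes. CCAAT was found in windows of Plin2, Plin4 and Plin5, and in 33.8% of all windows. The matches of Plin2 and Plin4 lay inside the RefSeq spans of these genes, not upstream of them.

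The FITM genes also differed in opposite directions. Fitm1 (gene ID 68680), a gene mainly of muscle that is made in steatotic mouse liver as well, lies on the plus strand of chromosome 14 from 55575674 to 55576952. It had 4600 counts in control and 3749 with erythrodiol, a ratio of 0.803 (counting interval 0.769 to 0.839). Fitm2 (gene ID 228859), the widely expressed member, on the minus strand of chromosome 2 from 163468703 to 163472629, had 2649 counts in control and 3396 with erythrodiol, a ratio of 1.26 (counting interval 1.201 to 1.33).

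For Fitm1 the log2 ratio moved from -0.32 to -0.16 once set against genes of like length, with 187 of the 500 below it, and against the 20 classes of length it was -0.01. For Fitm2 it moved from 0.34 to 0.27, with 439 of the 500 below it, the highest place among the 9 genes. Fitm1 held 75.8% of the FITM level per kilobase in control and 66.5% with erythrodiol. Its exons share 109 bases with the antisense gene Gm15932, and those of Fitm2 share 227 bases with the antisense gene 2310001K24Rik, both without an entry in the table.

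**Figure D3:**
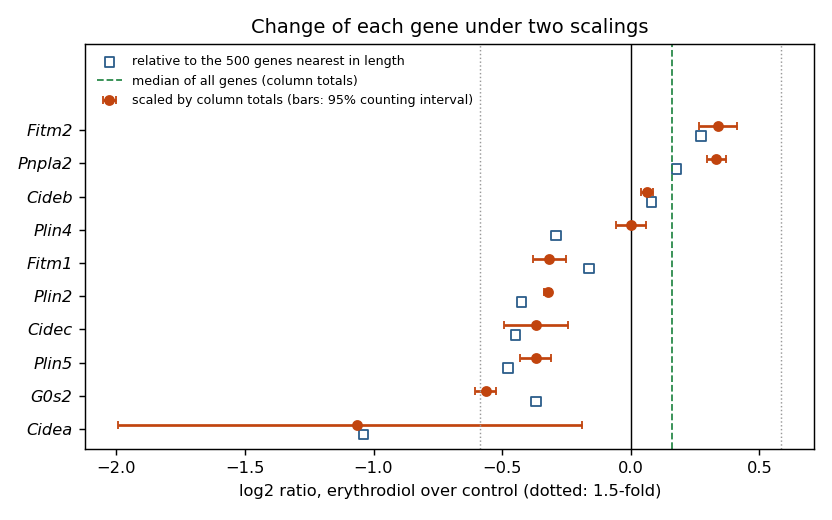
Log2 ratio, erythrodiol over control, of the 10 genes after scaling by column totals (orange circles, with 95% counting intervals) and relative to the 500 genes nearest in length (blue squares, no interval), with the median of all genes at 0.16 (green dashed line) and the 1.5-fold limits (dotted lines). Plin2, Plin5, Cidea, Cidec, G0s2 and Fitm1 lie below 0 on both scales. Pnpla2 and Fitm2 lie above 0 on both, as does Cideb by little (0.06 and 0.08).

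Newly assembled coding transcripts, which the authors built from all libraries together and which therefore allow no comparison of the diets, were assigned to 4 of the 10 genes, while 35.8% of genes with at least 100 counts had any. Plin4 received 9, a number reached by 0.978% of these genes. All 9 run from 56100587 to 56109953 on chromosome 17 and hold 7 to 9 exons with 4742 to 7717 bases. On the minus strand of Plin4 they begin 5 bases upstream of the RefSeq span. None reaches Plin5, which received 1 transcript of 8 exons and 1804 bases. Plin2 received 2 transcripts of 9 exons each, with 1743 and 1816 bases, and Pnpla2 received 1 of 9 exons and 2760 bases. The expected counts of these 4 genes include reads assigned to the added transcripts, by the study's methods.

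Among other proteins of the droplet surface, 13 of 15 genes had at least 100 counts, and their median log2 ratio was 0.13, or 0.01 relative to genes of like length. The only one past 1.5-fold was Hilpda, which encodes another inhibitor of the lipase of Pnpla2, with 440 counts in control and 271 with erythrodiol (ratio 0.607, counting interval 0.520 to 0.708). Relative to genes of like length its log2 ratio was -0.583, just within 1.5-fold. Mettl7b, a droplet protein of hepatocytes, had the highest ratio, 1.39, at 61252 and 86373 counts.

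Among other lipases and their cofactors, all 12 genes had at least 100 counts, none was past 1.5-fold, and the median log2 ratio was 0.13, or -0.04 relative to genes of like length. Abhd5, the coactivator of the lipase of Pnpla2, had 3550 and 3913 counts, with a ratio of 1.09 (counting interval 1.04 to 1.14). The lowest was Aadac, a lipase of the endoplasmic reticulum, at 0.719, and the highest Pnpla6, a phospholipase, at 1.38.

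Of 13 genes of droplet formation and triglyceride synthesis, 12 had at least 100 counts. Of these, 2 were higher past 1.5-fold and 1 was lower, against 2.55% and 3.14% of all genes. Lpin1 and Lpin2, which encode phosphatidate phosphatases, had ratios of 1.61 and 1.54, at 6235 and 10211 counts and at 25279 and 39451 counts, respectively. Relative to genes of like length neither was past 1.5-fold, with log2 ratios of 0.43 and 0.35. Mogat1, a monoacylglycerol acyltransferase raised in fatty liver, had 271 counts in control and 147 with erythrodiol, a ratio of 0.535 (counting interval 0.434 to 0.656).

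PPAR receptors are fatty acid sensors, and known targets of them are found among the lipid droplet genes, which were not sorted into targets and other genes. Whether such targets differed from the other lipid droplet genes was not tested. The 17 genes of the receptors, their coactivator and targets all had at least 100 counts. Past 1.5-fold, 1 was higher and 2 were lower, against 2.55% and 3.14% of all genes. The median log2 ratio of the 17 was 0.23, or 0.01 relative to genes of like length. Fgf21, a hormone of the fasted liver, had 1207 counts in control and 2695 with erythrodiol, a ratio of 2.20. Cd36, a fatty acid transporter, had 21278 and 13007 counts, a ratio of 0.602, and Fabp4, a fatty acid carrier of fat and macrophages, had 1401 and 834, a ratio of 0.587. Relative to genes of like length the log2 ratio of Fabp4 was -0.46, within 1.5-fold. Ppara and Pparg had ratios of 1.43 and 1.08, and relative to genes of like length their log2 ratios were 0.19 and -0.01.

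**Figure D4:**
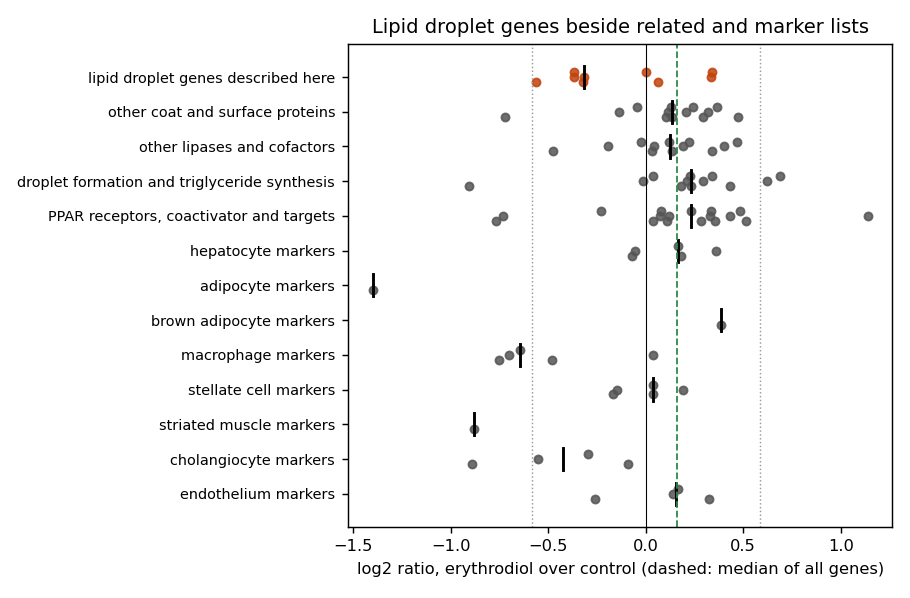
Log2 ratio, erythrodiol over control, after scaling by column totals, of genes with at least 100 counts (points) in the lipid droplet genes (orange) and in 12 related and marker lists (grey), with the median of each list (black bars), the median of all genes at 0.16 (green dashed line) and the 1.5-fold limits (dotted lines). The bar of the lipid droplet genes lies at -0.32, and that of the macrophage markers at -0.65.

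Of 4 cholangiocyte markers, Krt19 was lower past 1.5-fold, with 280 and 153 counts, and the summed level of the 4 went from 5.87 to 4.40. No gene of the 4 endothelium markers and the 5 stellate cell markers was past 1.5-fold, at summed levels of 49.9 and 46.7 for endothelium and 163 and 148 for stellate cells. These sums were mostly those of Clec4g and Dcn, with ratios of 0.836 and 0.890, whereas 3 of the 4 endothelium markers (Stab2 at 1.12) and 3 of the 5 stellate cell markers had ratios above 1, and Lrat had 0.902. The median log2 ratios were 0.15 and 0.04, or -0.11 and -0.26 relative to genes of like length. The 5 hepatocyte markers summed to 55730 and 54764, mostly Alb, with a ratio of 0.962, while Ttr, Serpina1a and Cps1 had ratios of 1.13, 1.12 and 1.28 and the median log2 ratio was 0.16.

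Most adipocyte and muscle markers were near 0. Of 5 adipocyte markers 1 had at least 100 counts, namely Cfd, with 416 in control and 160 with erythrodiol (ratio 0.379, counting interval 0.314 to 0.456), whereas Adipoq had 28 and 25 counts, and the 5 summed to 4.01 and 1.64. Of the 3 brown adipocyte markers, Ucp1 had 5 and 18 counts, Cpt1b 512 and 678, and Dio2 1 and 0. The sum of the 3 was 1.47 and 1.97, of which Cpt1b held 1.44 and 1.88. Striated muscle markers, 4 of 5 with an entry in the table, summed to 0.922 and 0.533, with Ckm at 3 counts in control and 0 with erythrodiol, and Mylpf at 87 and 48. The level of Plin4 was 6.80 and 6.81, and that of Cidea 0.245 and 0.117. Levels of marker genes do not bound what a cell type adds to other genes. The part of these cells in the counts of Plin4, Plin5, Fitm1 and Cidea was not tested.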

How the data were processed

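The authors sequenced liver RNA pools, 7 per diet, as read pairs. Clean reads were mapped by the authors with Bowtie2 to reference and newly assembled coding transcripts and counted with RSEM. The authors deposited an expected count per gene, summed over the 7 libraries of a group and not normalized, with a gene length. For each library the authors deposited the count of clean reads and the percent mapped to genes. Columns with the authors' own log2 ratios, p-values and q-values were not used.

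Genes, lists and limits were chosen with earlier results of these data known. Group and replicate of a library follow its label. Because the design allowed for counts per library and the table holds sums of groups, no test was run. Counts were scaled by column totals, and levels also by length. Intervals are exact binomial ones on counts rounded to whole numbers, except for quotients of 2 genes, which used the normal approximation of the log odds ratio. Genes under 100 counts in the groups together were left out of medians and shares. Named genes are all members, in other lists those of highest and lowest ratio and those past 1.5-fold, and of marker lists the first. Other genes were named after their values were seen.

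The correction for length was tested on simulated data. Coordinates are from RefSeq (GRCm38.p6), and exon overlaps from GENCODE on GRCm38. Scripts ran in Python 3.11.15 with scipy 1.17.1, pandas 2.3.3 and numpy 2.4.6, and plots were drawn with matplotlib 3.10.9. Alternatives were 5 other scalings, other limits of fold and counts, and a pseudocount of 1. The 1.2-fold limit was added after seeing the data.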

Additional observations from a re-analysis of the deposited data

Results flagged for a closer look

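The share of clean reads mapped to genes was 64.3% in control replicate 3, the lowest of the control libraries, at a distance from the next one of 0.588 of the range of its group. It was picked out for lying far from the other control libraries, which chance does in about 1 in 20 groups, and 6 sets of library values were examined. This library contributed the smallest share of the control read pairs, 9.12%, and its part in the counts of the 10 genes is not known.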

How the results depend on the processing

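No member was past 1.5-fold with at least 100 counts. With ratios relative to the median of all genes, or with totals without the 100 genes of highest count, 1 member (G0s2) was past it, and with a minimum of 10 counts or none, 1 (Cidea). At 1.2-fold, chosen after seeing the data, 7 members were past the limit, or 6 relative to genes of like length. The median log2 ratio of the members changed from -0.32 to -0.48 relative to the median of all genes and to -0.42 without the 100 genes of highest count, and lay between -0.32 and -0.26 in the other alternatives. Cideb turned to -0.10 and -0.045 in these 2 scalings. In the 5 other scalings Plin2, Plin5, Cidea, Cidec, G0s2 and Fitm1 stayed below 0, Pnpla2 and Fitm2 above 0, while Plin4 went from 0.00 to between -0.30 and -0.11. No paired analysis was possible because each gene has 1 sum per group, and for the same reason no library could be left out. Depth limits the ratio of Cidea most, at under 100 counts.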
